A study of Mus musculus with 20 samples.

Results

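The spleen was compared with the small intestine as immune organs. The comparison used the 4 spleen and the 4 small intestine libraries of a series of 20, chosen by the organ named for each count column, and read on 24 lists of immune genes that hold 400 of the 55401 genes counted. Each organ had 2 libraries from WT mice and 2 from mice lacking Nsun6, an enzyme that places 5-methylcytosine on mRNA. All mice were female C57BL/6J at 8 weeks of age, and the KO was a CRISPR/Cas9 deletion of exons 3 and 4 of Nsun6. RNA came from whole organs that were frozen and ground, without cell sorting, and both genotypes stand on each side of the comparison. The labels number the libraries of a group as replicates without naming the animals, so the p-values measure the spread between these samples, and a shared number is not known to mean a shared mouse.

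The spleen filters blood. Its white pulp holds B cell follicles around T cell zones, and its red pulp holds macrophages that take up worn red cells and recycle their iron. The small intestine meets food and microbes: T cells sit between its epithelial cells, plasma cells below the epithelium secrete dimeric IgA that the epithelium carries into the lumen, and B cells gather in Peyer's patches and smaller follicles along the wall. Lymphocytes find the gut through the integrin of Itga4 and Itgb7, which binds Madcam1 on venules, and through Ccr9, the receptor for the epithelial chemokine Ccl25.

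The libraries held 25021003 to 34687048 counts. Levels are given as CPM, counts scaled by library size and TMM factor, always in the order WT replicate 1, WT replicate 2, KO replicate 1, and KO replicate 2. Fold changes are log2 of spleen over small intestine ± SE from edgeR's quasi-likelihood test with the genotype as a second term, so that a positive value is higher in spleen. Calls required a change of more than 2-fold and p below 0.1 after Benjamini-Hochberg adjustment over all genes tested. Gene counts of Nsun6 (chromosome 2, 14995131 to 15055069 of GRCm38) gave 12.1, 7.53, 11.3, and 6.26 CPM in intestine and 7.35, 5.3, 4.88, and 8.11 CPM in spleen. The genotypes overlapped in both organs, and because a deletion of these exons leaves the rest of the transcript to be counted, the gene count is no check of the KO label.

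The organ labels held in every library. Tlx1, the homeobox gene required for a spleen to form, had 18.2, 18.1, 17.5, and 9.81 CPM in spleen and no count in intestine, which puts it at least 121-fold higher in spleen when 3 counts per library are taken as the floor. Nkx2-5, a partner of Tlx1 in spleen development, had no count in intestine either and was at least 18-fold higher in spleen. Vil1, which bundles actin in the brush border, stood at 1696, 1999, 2138, and 2025 CPM in intestine and at no more than 0.672 CPM in any spleen library, and all 12 enterocyte genes tested were higher in intestine. Between libraries, correlations of log2 CPM were 0.957 to 0.977 within spleen, 0.91 to 0.966 within intestine, and 0.561 to 0.683 across the organs.

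The intestine libraries were not alike, and they differed by replicate number in both genotypes. Fabp6, the bile acid binding protein of the ileum, stood at 8389 CPM in WT replicate 1 and 7329 CPM in KO replicate 1 but at 0.29 and 0.493 CPM in the replicate 2 libraries. Pdx1, a transcription factor of the duodenum, had no count in the replicate 1 libraries and stood at 114 CPM in WT replicate 2 and 77.9 CPM in KO replicate 2. Smooth muscle genes summed to 414, 613, 3207, and 1834 CPM in intestine, so that KO replicate 1 was the most muscular sample. Hepatocyte genes summed to 4318 CPM in spleen WT replicate 2 against 10.7, 157, and 230 CPM in the other spleen libraries. Alb was the most abundant of them, with 4.45, 3264, 114, and 166 CPM in spleen. The part of these differences in the results that follow was not tested.

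Of 18495 genes tested, 5172 (28.0%) were called higher in spleen and 4568 (24.7%) higher in small intestine, and the median over all genes was 0.15 on the log2 scale. Thus 53.1% of all calls were higher in spleen, a share that was 70.4% when libraries were scaled by their totals without TMM, which moved the median of all genes to 0.75. Of the 400 immune genes, 369 passed the filter on low counts, which a gene could pass through its level in a single organ. Among these, 236 were higher in spleen (64.0%), 55 were higher in intestine (14.9%), and 78 were not called. Their median log2 fold change was 2.80. The list counts that follow are to be read against the 28.0% and 24.7% of all genes tested. Of the 8 genes in the list of spleen stroma identity, with Tlx1 and Nkx2-5, 7 were higher in spleen and none was higher in intestine, with a list median (log2) of 4.52, or 3.61 with the genes without counts set at their bound. In the plot of fold changes by list, the lists differed in the share of genes on either side. Neutrophil, red pulp macrophage, B cell, and general leukocyte genes were almost all higher in spleen. Plasma cell, CD8 T cell, and chemokine lists had calls on both sides. The list of epithelial genes that act on lymphocytes was mostly higher in intestine.

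**Figure D1:**
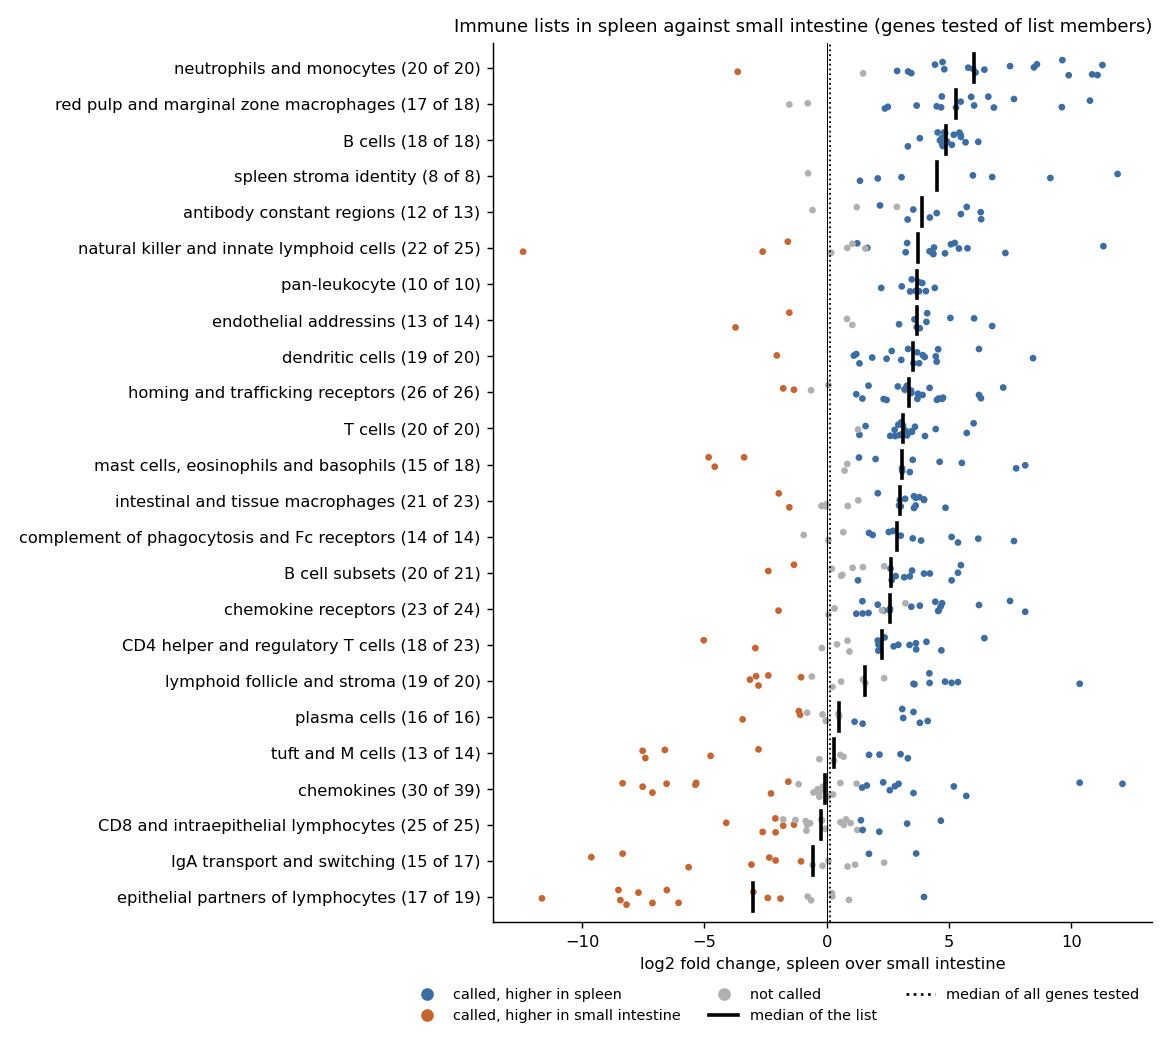
Log2 fold change of each tested gene (x axis, spleen over small intestine, 4 libraries a side) for the 24 immune lists (y axis, with the number of genes tested of the list's members). Blue and orange points were called higher in spleen or in small intestine, grey points were not called, black bars are list medians, and the dotted line is the median of all genes tested, 0.15.

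Genes shared by all leukocytes were higher in spleen without exception. All 10 pan-leukocyte genes were called, with a list median (log2) of 3.69. Ptprc, the CD45 phosphatase that marks every nucleated blood cell (chromosome 1, 138062861 to 138175708), stood at 238, 137, 89.4, and 118 CPM in intestine and at 1343, 1000, 954, and 1392 CPM in spleen (log2 fold change 3.07 ± 0.32, adjusted p = 0.000196). The organs did not overlap. Coro1a, an actin regulator of leukocytes, stood at 104, 53.4, 7.09, and 51.8 CPM in intestine and at 687, 624, 659, and 682 CPM in spleen (3.78 ± 0.67, adjusted p = 0.00227). KO replicate 1 was lowest in 9 of the 10 genes, and the list summed to 179 CPM there against 459 to 815 CPM in the other intestine libraries. In bulk tissue, fewer cells of a type and less RNA per cell cannot be told apart, so every level here is a level of the organ.

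**Figure D2:**
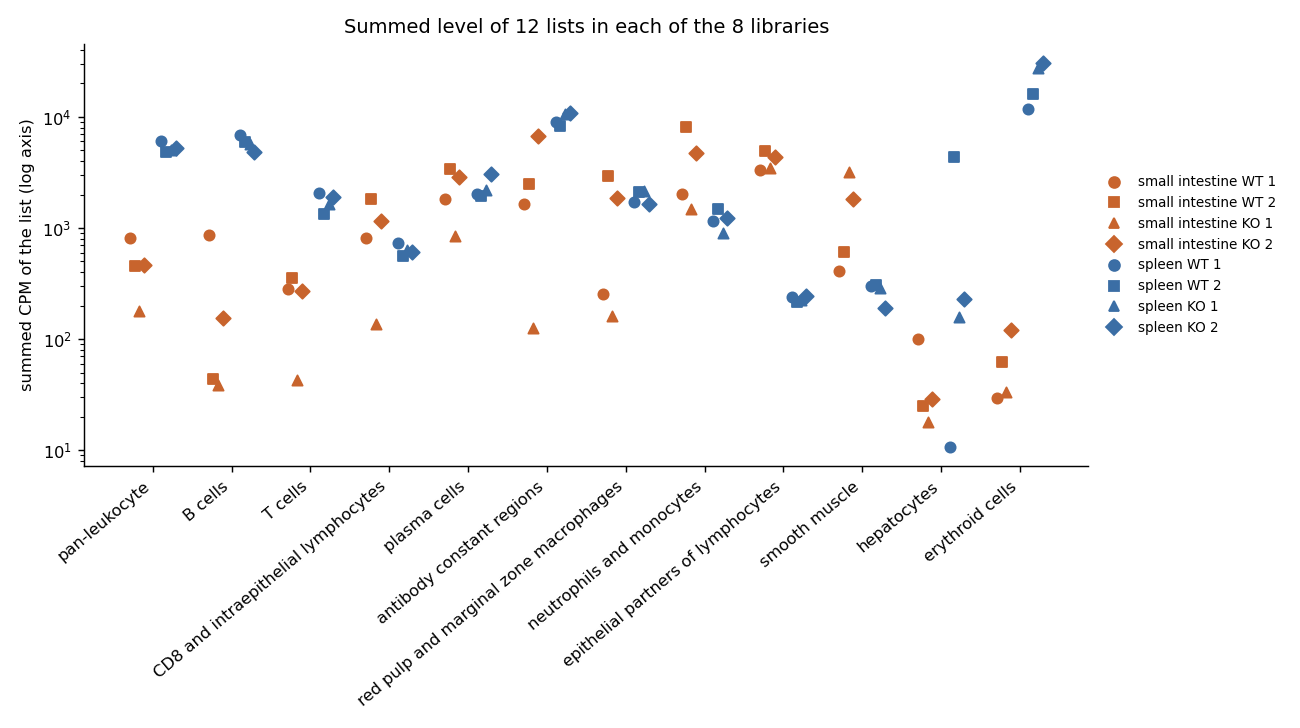
Summed CPM of 12 lists (x axis) in each of the 8 libraries on a log axis; orange symbols are small intestine, blue symbols are spleen, and the shape gives genotype and replicate. B cell genes reach 866 CPM in intestine WT replicate 1 against 38.5 to 154 CPM in the other intestine libraries, and KO replicate 1 is the lowest intestine library in the lists of B cells, T cells, and CD8 and intraepithelial lymphocytes and the highest in smooth muscle.

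B cell genes were higher in spleen without exception, and the intestine libraries differed widely in them, from 38.5 to 866 CPM for the summed list. All 18 were called, with a list median (log2) of 4.86, and in all 18 the organs did not overlap, against 33.1% of all genes tested. Ms4a1, the CD20 surface protein (chromosome 19, 11249675 to 11266241), stood at 121, 0.0966, 0.764, and 16.2 CPM in intestine and at 650, 629, 479, and 702 CPM in spleen (4.75 ± 1.77, adjusted p = 0.0482). Intestine WT replicate 1 was far above the other intestine libraries and below every spleen library. Without it the log2 fold change of Ms4a1 was 7.36, and the median of the list was 6.78. Without KO replicate 2, 16 of the 18 genes were called, and Ms4a1 was not among them (4.72, adjusted p = 0.126). With the WT libraries alone, 8 of the 18 genes were called, and with the KO libraries alone all 18 were. The smallest fold change of the list was that of Spib, a transcription factor that B cells share with M cells and plasmacytoid dendritic cells, at 35.3, 5.8, 25.7, and 17.1 CPM in intestine and 233, 233, 218, and 161 CPM in spleen (3.32 ± 0.53, adjusted p = 0.00136).

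Among the 21 genes of B cell subsets, 20 were tested, 12 were higher in spleen, and 2 were higher in intestine. Fcer2a (CD23), Ighd, and Dtx1, known from naive or marginal zone B cells, were higher in spleen, whereas Cd9, a tetraspanin that marginal zone B cells share with many other cells, was not called (0.21 ± 0.47, adjusted p = 0.712), and its sign turned without either replicate 2 intestine library (−0.16 and −0.11). Ighd was not called with the WT libraries alone (4.22, adjusted p = 0.171), with the replicate 1 intestine libraries alone (5.11, adjusted p = 0.115), or without a filter on low counts (5.41, adjusted p = 0.108). Cr2, the complement receptor of mature B cells and follicular dendritic cells, stood at 63.1, 0.0966, 0, and 7.2 CPM in intestine and 565, 325, 424, and 476 CPM in spleen (5.37 ± 1.95, adjusted p = 0.0443). Cd1d1, which presents lipids and is abundant on marginal zone B cells, had a tighter difference (3.98 ± 0.31, adjusted p = 5.52e-05). Among genes known from germinal centers, Bcl6 and Gcsam were higher in spleen, and S1pr2, Mef2b, and Nuggc were not called. Some of these calls were near the threshold. When KO replicate 2 was left out, Cr2 (5.19, adjusted p = 0.12), Fcer2a (5.06, adjusted p = 0.104), and Gcsam (2.58, adjusted p = 0.153) were not called. With the WT libraries alone Cr2 (3.73), Fcer2a (3.67), and Gcsam (1.26) were not called either (adjusted p of 0.266 to 0.303), and 7 genes of the list were higher in spleen. These 3 genes were also not called with the replicate 1 intestine libraries alone or without a filter on low counts. When WT replicate 2 was left out, Bcl6 was under 2-fold (0.91). When WT replicate 1 was left out, S1pr2 (1.15, adjusted p = 0.0637) and Mef2b (5.15, adjusted p = 0.00444) were called higher in spleen. In that fit the log2 fold change of Cr2 was 7.98 (adjusted p = 0.0106). Mef2b, a germinal center transcription factor, stood at 5.73 CPM in intestine WT replicate 1, at most 0.17 CPM in the other 3 intestine libraries, and 1.39 to 3.28 CPM in spleen, so that this intestine library lay above every spleen library (1.48 ± 1.83, adjusted p = 0.504). The 2 genes higher in intestine were Fas, a death receptor that many cells carry (−1.34 ± 0.27, adjusted p = 0.00399), and Rgs13. The call of Fas was lost with library totals (−0.72), with limma (−0.71), with the KO libraries alone (−1.13, adjusted p = 0.111), and with the replicate 1 intestine libraries alone (−0.99). Rgs13 regulates G protein signals in germinal center B cells and is also a tuft cell gene. It stood at 18.4, 10.9, 141, and 23.8 CPM in intestine and at 4.17, 4.6, 5.43, and 14.8 CPM in spleen (−2.39 ± 0.63, adjusted p = 0.0134), and the organs overlapped. Its highest library was KO replicate 1, not the library that was high in B cell genes. Without KO replicate 1 the log2 fold change of Rgs13 was −1.66 (adjusted p = 0.0138).

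The organs expressed the antibody classes in different proportions. Ighm, the constant region of IgM (chromosome 12, 113418558 to 113422730), stood at 120, 12.7, 6.58, and 47.3 CPM in intestine and at 3213, 3047, 3212, and 3936 CPM in spleen (6.30 ± 1.01, adjusted p = 0.00141). Igha, the constant region of IgA (chromosome 12, 113254830 to 113260236), stood at 511, 602, 46.4, and 2721 CPM in intestine and at 485, 371, 852, and 763 CPM in spleen (−0.58 ± 0.89, adjusted p = 0.596). The libraries of both organs overlapped for IgA, whereas those for IgM did not. Within the constant regions of the heavy chain, and per kb of exon, Igha took 52.6, 95.5, 78.9, and 96.0% in intestine and 6.94, 5.72, 11.8, and 9.37% in spleen, a mean of 80.7% ± 20.4 (SD, n = 4) against 8.46% ± 2.7 (SD, n = 4). Ighm took 9.65% ± 8.16 in intestine and 65.7% ± 2.28 in spleen (SD, n = 4 each). These shares did not overlap between the organs for either class. The level of Igha depended on single intestine libraries, since it was called higher in intestine without KO replicate 1 (−1.07, adjusted p = 0.0236) and turned to 0.81 without KO replicate 2 (adjusted p = 0.534).

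**Figure D3:**
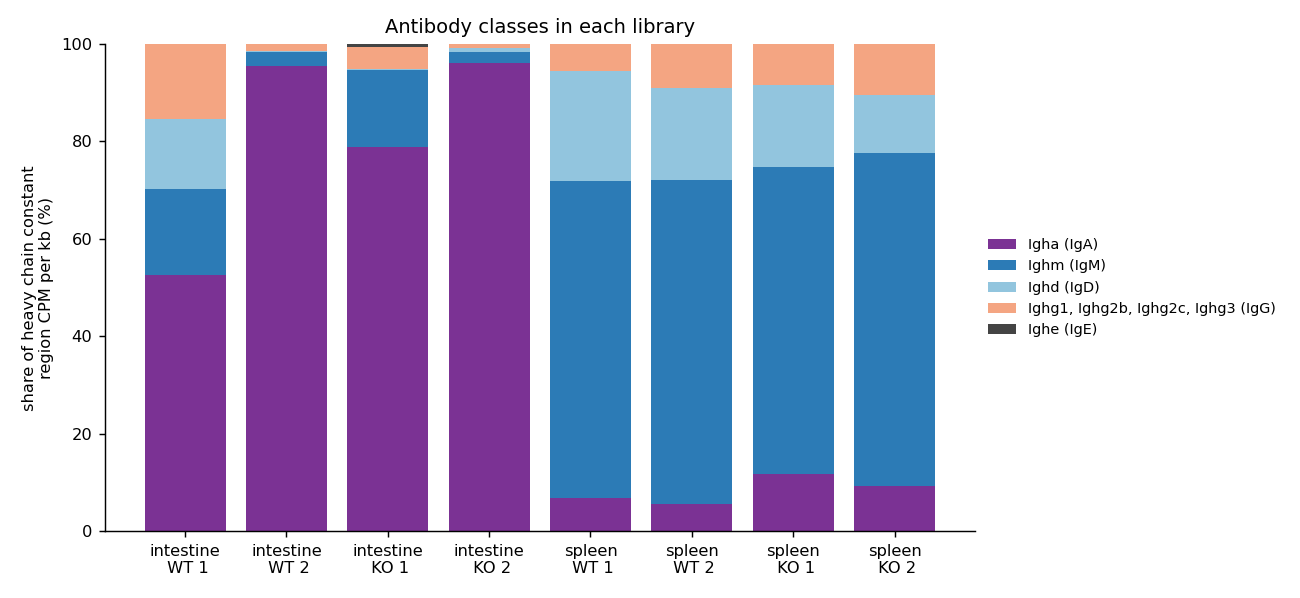
Share (%) of each antibody class in the CPM per kb of the heavy chain constant regions, one bar for each of the 4 small intestine and 4 spleen libraries. Igha takes 52.6 to 96.0% in small intestine and 5.72 to 11.8% in spleen; intestine WT replicate 1 is the intestine bar with the most IgD and IgG.

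Intestine WT replicate 1 stood apart here too. Ighd, the constant region of IgD on naive B cells, took 14.5% of its heavy chain level against 0.202 to 0.738% in the other intestine libraries, and the IgG regions together took 15.3% against 0.914 to 4.41%. Ighg3 and Ighg2c were among the IgG regions higher in spleen, with 3.44, 0.386, 0.0424, and 2.37 CPM against 104, 61.7, 103, and 56.7 CPM for Ighg3 (5.73 ± 1.03, adjusted p = 0.00234). Ighg2b was not called, with 122, 7.68, 1.36, and 15.8 CPM in intestine and 94.1, 164, 192, and 282 CPM in spleen (2.87 ± 1.36, adjusted p = 0.102). Its level in intestine WT replicate 1 was above that of a spleen library, and without that library the log2 fold change was 4.40 (adjusted p = 0.00537). It was also called without spleen WT replicate 1 (3.67, adjusted p = 0.0797). With all 8 libraries Ighg2b was called higher in spleen by DESeq2 (2.80, adjusted p = 0.00949) and limma (4.37, adjusted p = 0.022). The same held with library totals (adjusted p = 0.0576), a replicate block (adjusted p = 0.0463), and a minimum of 10 counts (adjusted p = 0.0931). It was called in the fit of all 20 libraries too, and with the KO libraries or the replicate 2 intestine libraries alone. Ighg2b and Ighg2c, and Iglc2 and Iglc3, have near-identical stretches between which the counting could split reads. The kappa light chain Igkc was not called (1.23 ± 0.93, adjusted p = 0.281). It was called higher in spleen with library totals (1.90, adjusted p = 0.0994) and with limma (2.88, adjusted p = 0.0694). The replicate 1 intestine libraries alone gave that call too (3.52, adjusted p = 0.0512). The lambda regions Iglc1, Iglc2, Iglc3, and Iglc4 were all called higher in spleen, and the difference between kappa and lambda was not tested. The call of Iglc1 (2.18, adjusted p = 0.0626) was lost on leaving out intestine WT replicate 1 or 2, spleen WT replicate 1 or 2, or spleen KO replicate 1, with adjusted p of 0.101 to 0.171. Lambda took 8.97% ± 5.12 of the light chain level in intestine and 17.4% ± 2.91 in spleen (SD, n = 4 each), and these shares overlapped. In all, 12 of the 13 constant regions were tested. Of these, 9 were higher in spleen, against 28.0% of all genes tested, and none was higher in intestine with all 8 libraries. With library totals or limma, 11 were higher in spleen. With the WT libraries alone, or without a filter on low counts, 6 were higher in spleen.

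Genes of plasma cells were called on both sides. Of 16, 7 were higher in spleen and 3 were higher in intestine, against 28.0% and 24.7% of all genes tested, and 6 were not called, with a list median (log2) of 0.49. Jchain, which joins IgA into dimers and IgM into pentamers, stood at 734, 2562, 165, and 2100 CPM in intestine and at 917, 913, 1188, and 2017 CPM in spleen, and the organs overlapped (−0.17 ± 0.77, adjusted p = 0.857). Relative to Igkc and per kb, however, Jchain was at 0.121 to 0.575 in intestine and 0.0581 to 0.104 in spleen, without overlap. Irf4, which B cells, activated T cells, and dendritic cells also use, and Pou2af1 and Tnfrsf13b, which B cells share, were among the 7 that were higher in spleen. The 3 that were higher in intestine, Xbp1, Prdm1, and Sdc1, are also genes of the epithelium. With library totals or limma, Xbp1 (−0.48 and −0.50) and Prdm1 (−0.56 and −0.51) were not called, nor were they with the KO libraries alone, and 1 gene of the list was higher in intestine. Xbp1 fell under 2-fold without spleen WT replicate 1 (−0.98), as Prdm1 did without intestine WT replicate 1 (−0.87) or spleen WT replicate 2 (−0.97). Sdc1, the syndecan used as a plasma cell marker, stood at 119, 45.4, 151, and 39.4 CPM in intestine against 5.72, 10.5, 6.7, and 9.61 CPM in spleen (−3.44 ± 0.52, adjusted p = 0.00114), and it was highest in KO replicate 1, where Jchain was lowest.

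Of the 17 genes that act in making and exporting IgA, 15 were tested, 7 were higher in intestine, and 2 were higher in spleen. Among all genes tested, 24.7% and 28.0% were called on these sides. The list median (log2) of −0.58 turned to 0.07 when libraries were scaled by their totals and to 0.53 with limma. Pigr, the receptor that carries dimeric IgA across the epithelium (chromosome 1, 130826684 to 130852249), stood at 3553, 6753, 2660, and 6586 CPM in intestine and at 3.8, 16.6, 3.94, and 3.51 CPM in spleen (−9.63 ± 0.80, adjusted p = 7.24e-05). Tnfsf13 (APRIL), a survival factor for plasma cells, stood at 6.12, 19.2, 3.69, and 14.5 CPM in intestine and at 1.46, 0.857, 0.993, and 1.75 CPM in spleen (−3.08 ± 0.60, adjusted p = 0.00324). The retinoic acid enzymes Aldh1a1 and Aldh1a2, which take part in gut imprinting of lymphocytes, were both higher in intestine (−2.35 ± 0.27 and −2.09 ± 0.32, adjusted p = 0.000331 and 0.00105). Nos2, the inducible nitric oxide synthase, was called higher in intestine (−5.65 ± 2.05, adjusted p = 0.0444) through 315 CPM in WT replicate 1 and 27.5 CPM in KO replicate 1. The replicate 2 libraries held 0.821 and 0.296 CPM, within or below the range of 0.667 to 1.16 CPM in spleen, and without WT replicate 1 Nos2 was not called (−2.66, adjusted p = 0.203). Nor was it called without intestine KO replicate 1 or without either WT spleen library (adjusted p of 0.114 to 0.184). Without a filter on low counts Nos2 was not called either (−5.70, adjusted p = 0.149), and with a replicate block its log2 fold change was −3.04. Tgfb1 and its receptor Tgfbr2, a signal for switching to IgA among many other roles, were the 2 genes higher in spleen; without intestine WT replicate 1 there were 4.

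Nearly all T cell genes were also called higher in spleen. Of 20, 19 were called, against 28.0% of all genes tested, with a list median (log2) of 3.11. In all 20 the organs did not overlap, against 33.1% of all genes tested. Trac, the constant region of the alpha chain of the T cell receptor, stood at 16.1, 20, 0.849, and 14.1 CPM in intestine and at 126, 65.4, 93, and 121 CPM in spleen (3.12 ± 0.79, adjusted p = 0.0107). The fold change was smallest for Zap70, the kinase that binds the CD3 complex, followed by Cd3e and Cd3g of that complex. Cd3e was at 10.8, 17.2, 1.83, and 14.2 CPM in intestine and 35.4, 22.3, 22.7, and 27 CPM in spleen (1.34 ± 0.56, adjusted p = 0.0721), and Zap70 was not called (1.28 ± 0.71, adjusted p = 0.154). Cd3e lost its call in 6 of the 8 fits that left out 1 library, all but those without intestine KO replicate 2 or spleen WT replicate 2 (0.83 to 1.43). Cd3g lost its call in 4, those without intestine WT replicate 1, spleen WT replicate 1, or either KO spleen library (adjusted p of 0.108 to 0.15). The fold change was largest for Lef1, a transcription factor of naive T cells (6.01 ± 0.55, adjusted p = 0.000119), and Cd2, an adhesion receptor (5.73 ± 0.82, adjusted p = 0.000849). Lef1 stood at 1.61, 0.628, 0.255, and 1.38 CPM in intestine and 76, 56.8, 62.5, and 52.9 CPM in spleen. Intestine KO replicate 1 was the lowest intestine library for Trac and Cd3e, by a wide margin.

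Genes of CD8 T cells and intraepithelial lymphocytes were called on both sides. Of 25, 6 were higher in intestine and 5 were higher in spleen, which is close to the 24.7% and 28.0% of all genes tested, and 14 were not called, with a list median (log2) of −0.22. The counts depended on the scaling, with 5 in intestine and 10 in spleen (median 0.40) for library totals and 1 and 10 (median 0.37) for limma on log2(TPM + 0.1). Gzma and Gzmb, proteases of cytotoxic granules, were higher in intestine. Gzma (chromosome 13, 113093825 to 113100981) stood at 352, 794, 34.9, and 426 CPM in intestine and at 54.9, 63.5, 60.3, and 57.7 CPM in spleen (−2.62 ± 0.74, adjusted p = 0.017). Gzmb stood at 108, 188, 10.6, and 127 CPM in intestine and at 6.44, 5.91, 5.68, and 5.35 CPM in spleen (−4.11 ± 0.73, adjusted p = 0.00227). For Gzma, KO replicate 1 was the only intestine library below the spleen, and without KO replicate 2 Gzma was not called (−2.16, adjusted p = 0.119), nor was it with limma (−1.53, adjusted p = 0.129) or with the KO libraries alone (−1.96, adjusted p = 0.226). Prf1, the pore protein released with these proteases, went the other way, with 1.29, 2.27, 0, and 1.48 CPM in intestine and 14.5, 9.05, 11.9, and 10 CPM in spleen (3.29 ± 0.90, adjusted p = 0.0153).

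The chains of the T cell receptors and of CD8 stood in different proportions. Cd8a, the alpha chain of CD8, was not called (0.98 ± 0.67, adjusted p = 0.236), at 52.6, 108, 7.13, and 78.9 CPM in intestine and 151, 77, 116, and 121 CPM in spleen. Cd8b1, its usual partner, stood at 4.33, 5.75, 0.255, and 3.01 CPM in intestine and 98.7, 49, 71.8, and 77 CPM in spleen (4.67 ± 0.75, adjusted p = 0.00142). Per kb, Cd8b1 was at 0.0876 to 0.202 of Cd8a in intestine and at 1.52 to 1.6 of Cd8a in spleen; many intraepithelial T cells carry a CD8 made of alpha chains alone. The constant regions of the gamma chain, Trgc1, Trgc2, and Trgc4, were higher in intestine (−2.10 ± 0.64, −2.09 ± 0.63, and −1.34 ± 0.53, adjusted p = 0.0231, 0.0222, and 0.0576), and they too are near-identical to one another. Trdc, the delta chain, was not called (−0.68 ± 0.66, adjusted p = 0.393), but per kb it was at 0.115 to 0.508 of Trac in intestine and at 0.0124 to 0.0257 of Trac in spleen. Itgae, the alpha chain of the integrin that holds T cells to the E-cadherin of epithelium, stood at 22.2, 44.2, 5.86, and 28.3 CPM in intestine and 8.02, 6.51, 5.52, and 7.62 CPM in spleen (−1.78 ± 0.51, adjusted p = 0.0177). Intestine KO replicate 1 was the lowest intestine library in each of these genes. Without it, 11 of the 25 genes were higher in intestine and 4 higher in spleen. Without KO replicate 2, 2 were higher in intestine and 6 in spleen, and Trgc1, Trgc2, and Trgc4 were not called (−1.49, −1.74, and −0.94). Trgc4 was not called without intestine WT replicate 2, spleen KO replicate 2, or either WT spleen library either (adjusted p of 0.11 to 0.146). Trgc1, Trgc2, Trgc4, and Itgae were not called with limma either (−1.08, −1.15, −0.50, and −0.97). Without KO replicate 1, Trdc was called higher in intestine (−1.22, adjusted p = 0.0189). With only the 2 intestine libraries that held ileal genes (replicate 1) set against all spleen libraries, 2 genes were higher in intestine and 11 in spleen. With only the 2 that held duodenal genes (replicate 2), 12 were higher in intestine and 4 in spleen.

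Genes of helper and regulatory T cells were mostly called higher in spleen in the main fit. Of 23 genes, 18 were tested, 12 were higher in spleen, and 2 were higher in intestine, against 28.0% and 24.7% of all genes tested. The spleen count was 7 of 18 with the WT libraries alone and 8 of 20 with the replicate 1 intestine libraries alone. Without intestine KO replicate 2 it was 9 of 19. With a minimum of 10 counts in every library it was 3 of 8, and 2 were higher in intestine. The list median (log2) was 0.65 there and 2.25 in the main fit. Cd4 stood at 9.49, 2.9, 0.637, and 8.09 CPM in intestine and at 77.2, 45.1, 58.9, and 80.9 CPM in spleen (3.65 ± 0.76, adjusted p = 0.00463). Foxp3, the factor that defines regulatory T cells, stood at 0.107, 0, 0, and 0.0986 CPM in intestine and at 6.23, 4.19, 4.27, and 5.32 CPM in spleen (6.45 ± 0.76, adjusted p = 0.000348). Maf, a transcription factor that several helper T cell types share with cells outside the T lineage, was one of the 2 genes higher in intestine (−2.92 ± 0.47, adjusted p = 0.0014). Maf was highest in the 2 libraries with ileal genes, at 797, 422, 1188, and 308 CPM, and the highest of them was KO replicate 1, where the T cell list was lowest (43.1 CPM). The cytokine genes Il17a, Il17f, Il22, and Il2 were too low to test. Il17a had no count in spleen and 0.788, 0.193, 0, and 0 CPM in intestine.

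Most of the tested genes in the joint list of natural killer and innate lymphoid cells were higher in spleen. Of 25 genes in this list, 22 were tested, 15 were higher in spleen, and 3 were higher in intestine. With a minimum of 10 counts in every library, 8 were tested, with 3 higher in spleen and 2 in intestine. The list median (log2) was 0.93 there and 3.75 in the main fit. Ncr1, the activating receptor NKp46, stood at 0.43, 0.0966, 0.255, and 0.345 CPM in intestine and 8.09, 10.2, 10.4, and 10.6 CPM in spleen (5.08 ± 0.45, adjusted p = 9.02e-05). Klra4, a Ly49 receptor of natural killer cells, had no count in intestine and 10.2, 13.8, 10.4, and 8.34 CPM in spleen, at least 81.1-fold higher against the floor of 3 counts per library. Eomes, a transcription factor of natural killer and memory CD8 T cells, was also higher in spleen (5.76 ± 0.90, adjusted p = 0.00125). The Klra genes are near-identical copies between which reads can be split. The genes higher in intestine were Gzma, Il17rb, a receptor for the tuft cell cytokine Il25, whose call was lost without either KO spleen library (−1.19 and −1.40) and with library totals or limma (−1.01 and −0.93), and Areg, a growth factor of the epidermal growth factor family. Areg had 16, 59, 5.09, and 12.6 CPM in intestine and no count in spleen, which is at least 278-fold higher in intestine.

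The epithelial genes that hold, feed, or select lymphocytes had the lowest median of the 24 lists. Of 19, 17 were tested, 11 were higher in intestine, and 1 was higher in spleen, with a list median (log2) of −3.00. The butyrophilin-like genes, which maintain gamma delta T cells of the epithelium, lie together on chromosome 17. Btnl1 (34377132 to 34386028) stood at 196, 522, 233, and 450 CPM in intestine and at 0.834, 1.71, 0.689, and 0.719 CPM in spleen (−8.52 ± 0.55, adjusted p = 2.52e-05). Btnl6 (34507804 to 34517352) stood at 553, 497, 492, and 394 CPM in intestine and at 0.973, 1.24, 1.3, and 2.16 CPM in spleen (−8.44 ± 0.35, adjusted p = 5.89e-06). Btnl1 and Btnl2 were higher in the replicate 2 libraries, which held duodenal genes, whereas Btnl4 and Btnl6 were not. H2-T3, the thymus leukemia antigen that binds CD8 alpha chains, stood at 238, 504, 276, and 495 CPM in intestine against at most 0.193 CPM in spleen (−11.65 ± 0.82, adjusted p = 3.61e-05). Il15, a cytokine that intraepithelial lymphocytes depend on, and Il18 were higher in intestine (−3.00 ± 0.37 and −1.89 ± 0.52, adjusted p = 0.000449 and 0.0158), although Il18 was not called with limma (−1.01, adjusted p = 0.112). Il7 was not called (0.23 ± 0.46, adjusted p = 0.688). Cd1d1, which also counts among the B cell genes above, was the gene higher in spleen; without spleen KO replicate 2 there were 2.

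Genes of tuft and M cells were called on both sides. Of 14, 13 were tested, 5 were higher in intestine, and 4 were higher in spleen, not far from the 24.7% and 28.0% of all genes tested for so few genes, with a list median (log2) of 0.30. Trpm5, the cation channel of tuft cells, stood at 10.9, 21.3, 116, and 52.6 CPM in intestine and at 1.51, 1.9, 1.16, and 0.978 CPM in spleen (−4.75 ± 0.76, adjusted p = 0.00146). Pou2f3, the factor that tuft cells need, stood at 1.47, 0.966, 16.1, and 5.18 CPM in intestine and at no more than 0.127 CPM in spleen (−6.62 ± 1.28, adjusted p = 0.00334). KO replicate 1 was highest in both, as it was in smooth muscle genes. Siglecf, an eosinophil receptor that tuft cells also express, followed the tuft genes, with 4.44, 7.15, 50.6, and 21.4 CPM in intestine and 0.533, 0.698, 0.386, and 0.806 CPM in spleen (−4.58 ± 0.72, adjusted p = 0.00128). The M cell gene Gp2 was not called (0.30 ± 1.0, adjusted p = 0.808). The genes of the list higher in spleen, Spib, Tnfaip2, Alox5ap, and Anxa5, are also genes of leukocytes or of many cell types; Alox5ap was not called without intestine WT replicate 2 (1.72, adjusted p = 0.146).

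Receptors that steer lymphocytes were mostly higher in spleen. Of 26, 21 were higher in spleen and 2 were higher in intestine, with a list median (log2) of 3.37. Ccr7, which guides naive T cells and mature dendritic cells to T cell zones, stood at 3.76, 0.29, 0, and 1.28 CPM in intestine and 108, 80.6, 84.9, and 84.5 CPM in spleen (6.23 ± 1.10, adjusted p = 0.00216). Klf2, the factor that keeps S1pr1 expressed, had a small error, at 8.63, 4.35, 5.39, and 6.81 CPM in intestine and 198, 207, 168, and 121 CPM in spleen (4.76 ± 0.28, adjusted p = 1.69e-05). For Ccr7, WT replicate 1 was the highest intestine library.

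None of the receptors Ccr9, Itga4, Itgb7, and Ccr10, known for homing to the gut, was called higher in intestine by CPM. Ccr9 was called higher in spleen although the organs overlapped. It stood at 14.3, 17.8, 4.07, and 9.57 CPM in intestine and at 26.3, 15.9, 16.6, and 39.4 CPM in spleen (1.21 ± 0.50, adjusted p = 0.0675). Its call was lost on leaving out intestine WT replicate 1, KO replicate 1, or KO replicate 2, spleen WT replicate 1, or spleen KO replicate 2, with log2 fold changes of 0.71 to 1.30 and adjusted p of 0.119 to 0.201. Ccr9 shares exon bases with Slc6a20a and 2 unnamed gene models, where the counting cannot tell the genes apart. Itga4 and Itgb7, the chains of the integrin that binds Madcam1, were both higher in spleen (3.92 ± 0.70 and 2.91 ± 0.55, adjusted p = 0.00225 and 0.00303). Relative to Itgb7 and per kb, Itgae was at 0.605 to 1.1 in intestine and at 0.0242 to 0.0402 in spleen, without overlap. Ccr10, the receptor for Ccl28, was near the detection limit in both, at 0.359 to 0.806 CPM over the 8 libraries (0.07 ± 0.42, adjusted p = 0.89). Itgae and Gpr55, a receptor of intraepithelial lymphocytes, were the 2 genes higher in intestine. Gpr55 was not called with library totals (−0.73) or with limma (−0.72), nor was Itgae with limma (−0.97), and neither was called with the KO libraries alone.

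Most of the endothelial addressins tested were called higher in spleen as well. Of 14 genes, 13 were tested, 9 were higher in spleen, and 2 were higher in intestine. Madcam1, the gut addressin (chromosome 10, 79664559 to 79668537), stood at 2.54, 0.483, 0, and 2.56 CPM in intestine and 17.7, 18.5, 19.7, and 11.7 CPM in spleen (3.59 ± 1.03, adjusted p = 0.018); in the spleen it lines the marginal sinus. Vcam1, an adhesion molecule of endothelium, stroma, and red pulp macrophages, stood at 12.6, 4.83, 1.99, and 9.96 CPM in intestine and 429, 501, 513, and 450 CPM in spleen (6.03 ± 0.61, adjusted p = 0.00019). Lyve1, a hyaluronan receptor of lymphatic vessels, and Chst4, a sulfotransferase that high endothelial venules share with epithelium, were the 2 genes higher in intestine (−1.53 ± 0.40 and −3.73 ± 0.64, adjusted p = 0.0127 and 0.00185). Lyve1 was not called with library totals (−0.93), with limma (−0.99), or with the KO libraries alone (−1.01, adjusted p = 0.246).

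Chemokines were called on both sides. Of 39 genes, 30 were tested, 11 were higher in spleen, and 8 were higher in intestine, not far from the 28.0% and 24.7% of all genes tested, with a list median (log2) of −0.05. Ccl25, made by the epithelium of the small intestine (chromosome 8, 4325210 to 4360020), stood at 1021, 1484, 1028, and 1203 CPM in intestine and at 8.53, 8.57, 8.3, and 8.34 CPM in spleen (−7.13 ± 0.23, adjusted p = 3.74e-06). It was the most abundant chemokine of the intestine by CPM, and it shares exon bases with Elavl1. Ccl28, another epithelial chemokine, stood at 160, 45.1, 43.1, and 15 CPM in intestine and at no more than 0.23 CPM in spleen (−8.35 ± 0.90, adjusted p = 0.000248). Cx3cl1, a chemokine tethered to the cell surface, was also higher in intestine, at 58.5, 92, 84.5, and 72.4 CPM against 0.508 to 0.949 CPM (−6.55 ± 0.29, adjusted p = 6.97e-06). Ccl20, which the epithelium over follicles makes, had 8.05, 29.3, 1.06, and 11.3 CPM in intestine and counts in a single spleen library (−7.53 ± 1.57, adjusted p = 0.0046).

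The chemokines higher in spleen included Cxcl12, Cxcl13, Pf4, and Ppbp. Cxcl12, which retains leukocytes and their precursors, stood at 9.77, 4.68, 5.26, and 16.1 CPM in intestine and 319, 377, 305, and 294 CPM in spleen (5.20 ± 0.46, adjusted p = 0.000101). Pf4 and Ppbp, the chemokines of platelet granules, were both higher in spleen, Ppbp at 178, 264, 132, and 205 CPM against 0.143 CPM in 1 intestine library and no count in the other 3. Cxcl13, which draws B cells into follicles (chromosome 5, 95956951 to 95961068), stood at 56.8, 1.11, 0.509, and 13.7 CPM in intestine and 189, 160, 153, and 175 CPM in spleen (3.55 ± 1.30, adjusted p = 0.0459), with intestine WT replicate 1 highest, as for Ms4a1; it was not called without intestine KO replicate 2 (3.84, adjusted p = 0.108). Ccl19, a ligand of Ccr7, had no count in intestine, and in spleen it stood at 19.4 CPM in WT replicate 1 against 0.667, 1.21, and 0.575 CPM in the others. Its other ligands, Ccl21a and Ccl21b, were too low to test, and since Ccl19 and Ccl21 have near-identical copies in the mouse genome, these levels are uncertain.

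Of 24 chemokine receptors, 23 were tested, 18 were higher in spleen, and Ackr4, a scavenger of Ccr7 and Ccr9 ligands, was the gene higher in intestine (−1.97 ± 0.40, adjusted p = 0.00414). Ccr3, the eotaxin receptor, had one of the largest differences, at 0.0716, 0.193, 0.212, and 0.542 CPM in intestine and 61.6, 56.8, 82.3, and 64.3 CPM in spleen (8.12 ± 0.45, adjusted p = 1.29e-05). Of the eosinophil granule genes, Epx was at no more than 2.47 CPM and Prg2 at no more than 21.5 CPM in any library; Prg2 was called higher in spleen except without spleen WT replicate 2 (2.72, adjusted p = 0.122). In the plot of chemokines with their receptors, Ccl25, Ccl28, Ccl20, and Cx3cl1 lay on the intestinal side while none of their receptors did. For Cxcl12, Cxcl13, Ccl2, and Cxcl9, both the chemokine and a receptor lay on the spleen side.

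**Figure D4:**
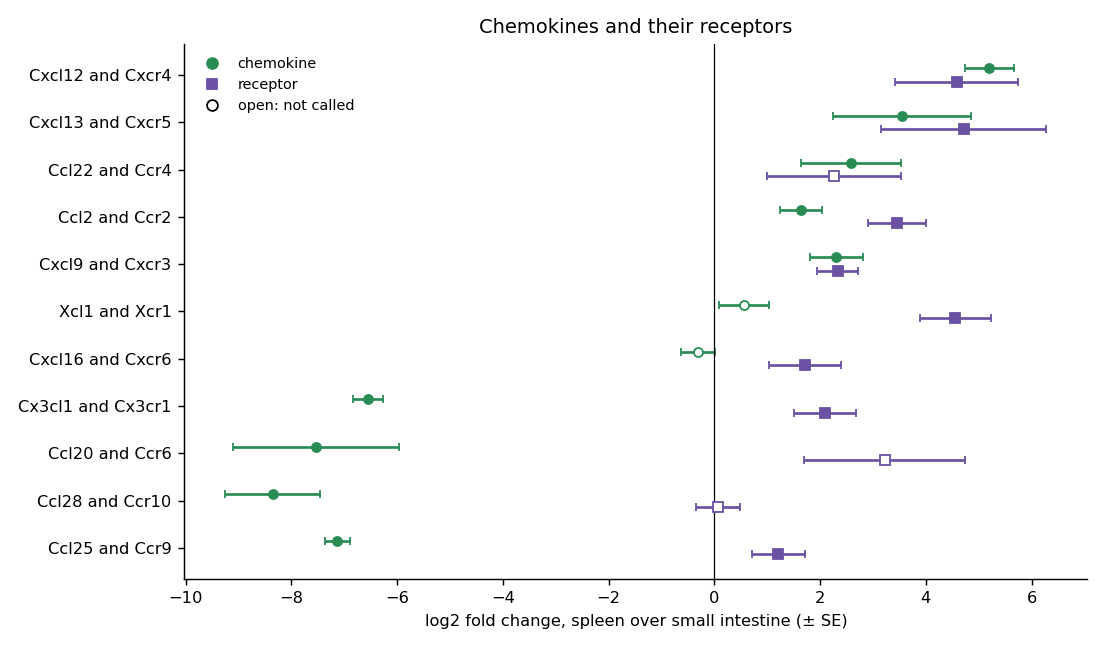
Log2 fold change of spleen over small intestine ± SE (x axis, 4 libraries a side) for 11 chemokines (circles) and one receptor of each (squares), with open symbols for genes that were not called. Ccl25, Ccl28, Ccl20, and Cx3cl1 lie between −8.35 and −6.55, whereas Ccr9, Ccr10, Ccr6, and Cx3cr1 lie between 0.07 and 3.22.

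Genes of follicles and their stroma were called on both sides as well. Of 20, 19 were tested, 8 were higher in spleen, and 5 were higher in intestine, the latter near the 24.7% of all genes tested. With the WT libraries alone the counts were 4 and 3. With a minimum of 10 counts in every library, 11 were tested, with 3 higher in spleen and 5 in intestine. The list median (log2) was −0.63 there and 1.58 in the main fit. Ltb, the lymphotoxin that lymphocytes use to build follicles, stood at 24, 6.04, 1.99, and 4.09 CPM in intestine and 197, 177, 199, and 219 CPM in spleen (4.84 ± 0.73, adjusted p = 0.00109). Its receptor Ltbr, which stroma and epithelium carry, went the other way, at 64.6, 137, 71.1, and 132 CPM in intestine and 12.7, 12.4, 12.2, and 8.6 CPM in spleen (−3.14 ± 0.32, adjusted p = 0.000179). Tnfrsf11a (RANK), the receptor through which M cells are induced, was also higher in intestine (−2.79 ± 0.21, adjusted p = 4.23e-05), while its ligand Tnfsf11 was not called (1.58 ± 1.07, adjusted p = 0.233) unless intestine WT replicate 1 was left out (2.96, adjusted p = 0.0706). The remaining 3 on the intestinal side were Tnfsf13b (BAFF), Rgs13, and Bst1. Tnfsf13b was just past 2-fold (−1.05 ± 0.36, adjusted p = 0.0348). It was not called without intestine KO replicate 2 or either replicate 2 spleen library (−0.99 to −0.75), nor when libraries were scaled by their totals (−0.42). With limma (−0.39) or a replicate block (−0.96, adjusted p = 0.0729) it was not called either. Nor was it called with the WT libraries (−0.85), the KO libraries (−1.36, adjusted p = 0.1), or the replicate 1 intestine libraries (−0.49) alone. Without intestine WT replicate 1, 12 genes of this list were higher in spleen, and without KO replicate 2 there were 5.

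Genes of red pulp and marginal zone macrophages were mostly called higher in spleen. Of 18, 17 were tested, 15 were higher in spleen, and none was higher in intestine, with a list median (log2) of 5.29. Spic, the transcription factor of red pulp macrophages (chromosome 10, 88674772 to 88685015), stood at 116, 144, 134, and 109 CPM in spleen and at 0.644, 0, 0, and 0 CPM in intestine (9.62 ± 1.06, adjusted p = 0.000271). Hmox1, which breaks down heme, stood at 2, 2.85, 2.67, and 2.37 CPM in intestine and 232, 394, 349, and 164 CPM in spleen (6.84 ± 0.37, adjusted p = 1.23e-05). Marco, a scavenger receptor of marginal zone macrophages, had 75.4, 75.5, 118, and 58.6 CPM in spleen and counts in only 1 intestine library, at 0.197 CPM (10.77 ± 0.82, adjusted p = 4.97e-05). Slc40a1, the iron exporter that these macrophages share with duodenal enterocytes, was not called, at 166, 2843, 68.7, and 1727 CPM in intestine and 370, 449, 435, and 353 CPM in spleen (−1.53 ± 1.03, adjusted p = 0.229). Its intestine libraries lay on either side of the spleen, the replicate 2 libraries with duodenal genes above and the replicate 1 libraries below. Without KO replicate 1 it was called higher in intestine (−2.09, adjusted p = 0.0597), the only intestinal call of this list in that fit, and without WT replicate 1 the list held 1 as well.

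Macrophage genes of the intestine and of tissues in general were mostly called higher in spleen. Of 23 in the list of intestinal and tissue macrophages, 21 were tested, 13 were higher in spleen, and 2 were higher in intestine, with a list median (log2) of 2.99. Csf1r, the growth factor receptor of macrophages, stood at 10.6, 13.6, 6.75, and 23.4 CPM in intestine and 163, 156, 176, and 144 CPM in spleen (3.57 ± 0.38, adjusted p = 0.000238). Cx3cr1, a receptor of resident intestinal macrophages, stood at 3.65, 4.88, 0.976, and 8.29 CPM in intestine and 24.4, 15.4, 20, and 15.9 CPM in spleen (2.09 ± 0.58, adjusted p = 0.0156). Mrc1, the mannose receptor, varied least of the list within intestine, at 12.3 to 13.5 CPM in all 4 intestine libraries and 152 to 168 CPM in all 4 spleen libraries (3.64 ± 0.13, adjusted p = 4.62e-06). Mertk, a receptor for dying cells, was higher in intestine (−1.96 ± 0.39, adjusted p = 0.0036), with Lyve1, whose call did not hold with library totals or limma (−0.93 and −0.99). Adamdec1, a protease known from gut macrophages and stroma, was not called (−0.21 ± 0.24, adjusted p = 0.477). Of 14 genes for Fc and complement receptors, 11 were higher in spleen and none was higher in intestine, against 28.0% and 24.7% of all genes tested. The spleen count was 6 with the WT libraries alone. With the replicate 1 intestine libraries alone it was 8, and with the replicate 2 intestine libraries alone it was 12. Fcgrt, the neonatal Fc receptor that epithelium also expresses, was not called, at 53.8, 182, 56.7, and 201 CPM in intestine and 62.7, 75.3, 72.1, and 47.8 CPM in spleen (−0.94 ± 0.48, adjusted p = 0.128). It was called higher in intestine without WT replicate 1 (−1.32) or KO replicate 1 (−1.29) of the intestine.

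Dendritic cell and granulocyte genes were higher in spleen nearly throughout. Of 20 dendritic cell genes, 19 were tested and 18 were higher in spleen. Xcr1, the receptor of dendritic cells that cross-present antigen, stood at 0.859, 1.74, 0.0849, and 1.28 CPM in intestine and 25.4, 20.8, 21, and 21.8 CPM in spleen (4.56 ± 0.68, adjusted p = 0.00106). The exception was Tlr3, a sensor of double-stranded RNA that epithelium also carries, at 106, 93.3, 98.6, and 85.8 CPM in intestine and 25.5, 20.5, 25, and 22.3 CPM in spleen (−2.04 ± 0.15, adjusted p = 3.67e-05). Of 20 neutrophil and monocyte genes, 18 were higher in spleen. S100a8, a calcium-binding protein that neutrophils hold in bulk, stood at 0.0424 to 0.179 CPM in intestine and at 90.6, 172, 51.4, and 140 CPM in spleen (9.90 ± 0.55, adjusted p = 1.39e-05). Elane and Mpo, made by neutrophil precursors, had no count in intestine and were at least 68.4-fold and 78-fold higher in spleen. Plac8 went the other way, at 1974, 8105, 1472, and 4725 CPM in intestine and 295 to 348 CPM in spleen (−3.64 ± 0.56, adjusted p = 0.00119); it is also a gene of intestinal epithelium.

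Mast cell proteases were called on both sides. Of 18 genes of mast cells, eosinophils, and basophils, 15 were tested, 10 were higher in spleen, and 3 were higher in intestine. Among all genes tested, 28.0% and 24.7% were called on these sides, so the intestinal count was near that share. Mcpt1 and Mcpt2, the proteases of mucosal mast cells, were higher in intestine, Mcpt1 at 1.86, 2.27, 2.42, and 5.03 CPM against 0.0552 to 0.139 CPM (−4.83 ± 0.58, adjusted p = 0.000378). Mcpt4 and Cma1, the proteases of connective tissue mast cells, were higher in spleen, Cma1 at 2.25, 2.22, 3.28, and 1.67 CPM against 0.0716, 0.386, 0, and 0 CPM (4.62 ± 0.98, adjusted p = 0.00473). All of these levels were low. With a minimum of 10 counts in every library, 5 genes of the list were tested, with 2 higher in spleen and 1 in intestine.

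Genes carried by a single intestine library were then listed by one rule, namely a highest intestine library of at least 1 CPM and at least 3 times the next. Over all genes tested, 653 (3.53%) met it. Of the 369 immune genes, 60 did (16.3%), of which 51 were carried by WT replicate 1, 6 by KO replicate 1, 2 by KO replicate 2, and 1 by WT replicate 2. WT replicate 1 carried 1.72% of all genes tested and 13.8% of the immune genes. By contrast, the same rule in spleen gave 319 genes (1.72%) and 2 immune genes, with 246 of the 319 in WT replicate 2, the library with hepatocyte transcripts.

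The genes carried by intestine WT replicate 1 were mainly those of B cells and follicles. They included 15 of the 18 B cell genes, and 28 of the 51 were in the B cell, B cell subset, antibody, or follicle lists. Gpr183, which positions B cells at the follicle edge, stood at 10.3, 0.386, 0.17, and 3.25 CPM in intestine, and Il21, a cytokine of follicular helper T cells, at 2.9, 0.193, 0, and 0.0986 CPM. Pdcd1 (PD-1), Icos, Cxcr5, and Ctla4, which these helper cells share with other lymphocytes, and Lta, the partner of Ltb, followed this layout. Cxcr5 is also among the 15 B cell genes. In 41 of the 51, the library lay below the spleen mean. It lay above the spleen mean in 10, among them Mef2b, Il21, Ccr4, Nuggc, S1pr2, Itgam, Il10, Ccl28, and Nos2. Since these genes were chosen for a high level in this library, leaving it out moves their fold changes towards the spleen by construction, and what follows is a description. Without it, 8 genes that had not been called were called higher in spleen, among them Mef2b, Ccr6, Ccr4, Ighg2b, Il21, Itgam, and S1pr2, and Nos2 alone lost its call. Ccr6 and Ccr4 were also called without spleen WT replicate 2 (3.95 and 3.27). Without intestine KO replicate 2, Ctla4 was not called (2.78, adjusted p = 0.107). Pdcd1 was not called in 5 of the 8 fits that left out 1 library, those without intestine WT replicate 2 or either KO library of an organ (adjusted p of 0.111 to 0.182).

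**Figure D5:**
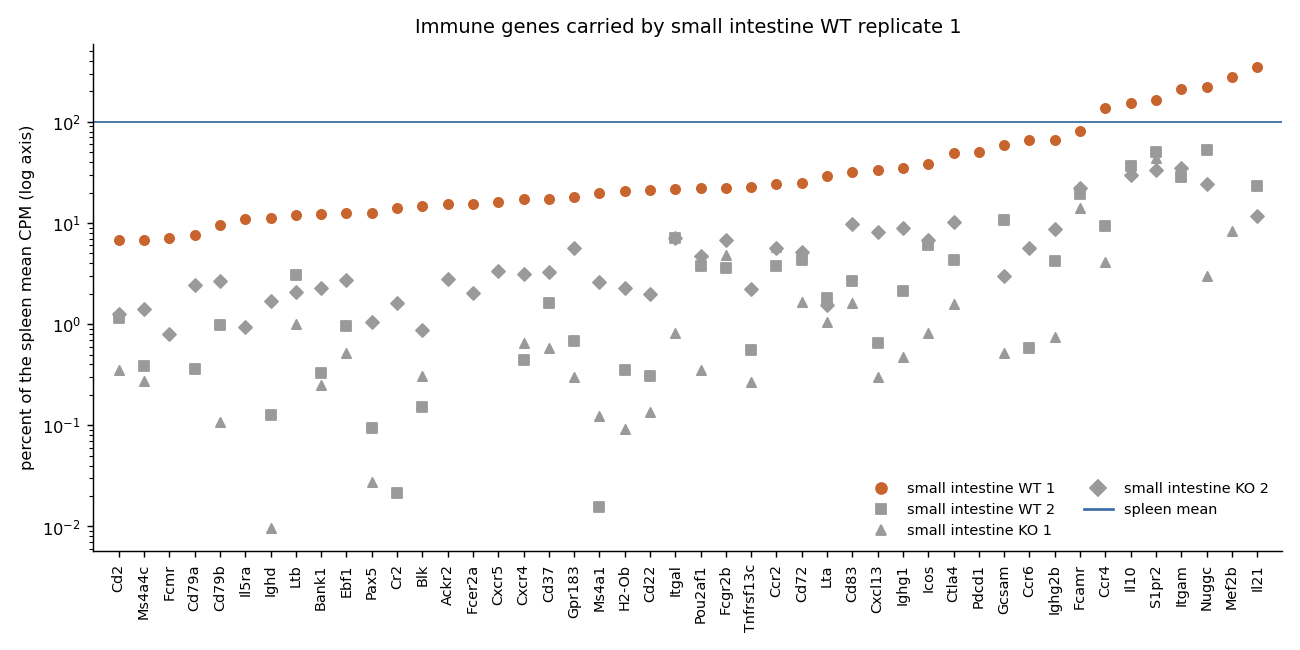
CPM of each small intestine library as a percent of the spleen mean (log axis) for 46 of the 51 immune genes carried by small intestine WT replicate 1 (orange); Ccl28 and Nos2, which are far above the spleen in this library, 3 genes not reported here, and libraries without a count are not drawn. Of the genes drawn, Cd2 is lowest at 6.8% of the spleen mean in WT replicate 1, and Il21 is highest at 348%.

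KO replicate 1 carried Rgs13, Pou2f3, Dclk1, Il1rl1, Il18r1, and Cd163. Dclk1, a kinase of tuft cells and neurons, stood at 13.9, 11.3, 79.3, and 24.7 CPM in intestine and 26.2 to 48.7 CPM in spleen; it was not called with all libraries (0.56 ± 0.55, adjusted p = 0.399) and was called higher in spleen without KO replicate 1 (1.06, adjusted p = 0.0219). KO replicate 2 carried Igha and Iglc1, at 2721 and 147 CPM. Il18r1 was called higher in spleen without KO replicate 1 (1.98, adjusted p = 0.0037), and Igha was called higher in intestine (−1.07, adjusted p = 0.0236). Without KO replicate 2, the log2 fold change of Igha turned from −0.58 to 0.81 (adjusted p = 0.534) and that of Iglc1 went from 2.18 to 3.67. WT replicate 2 carried Areg.

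Levels were also set relative to Ptprc, a gene of all leukocytes. Per kb and divided by Ptprc of the same library, 76.2% of all genes tested were higher in all 4 intestine libraries than in any spleen library, and 2.56% were higher in all 4 spleen libraries, since Ptprc itself was higher in spleen. Among the 368 immune genes other than Ptprc, these shares were 32.1% and 23.1%. The red pulp and marginal zone macrophage list had 12 of 17 genes higher in spleen on this scale, the neutrophil and monocyte list 13 of 20, natural killer and innate lymphoid cells 10 of 22, and B cells 8 of 18. The CD8 and intraepithelial list had 17 of 25 genes higher in intestine, the plasma cell list 10 of 16, and the T cell list none, with 4 of 20 higher in spleen. The shares of the CD8 and plasma cell lists, 68% and 62.5%, did not exceed the 76.2% of all genes tested. In the T cell list, Cd3e, Cd3g, and Zap70 were above every spleen library in each intestine library except KO replicate 1. That library was also low in Coro1a on this scale, at 0.522 against 2.57 to 2.89 in the other intestine libraries. Of the gut homing receptors, Ccr9 and Ccr10 were higher in all 4 intestine libraries on this scale, Itga4 was higher in all 4 spleen libraries, and Itgb7 overlapped. Many genes counted on the intestinal side, such as Sdc1 and Xbp1, are also expressed by cells other than leukocytes.

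The difference between the organs was next compared between the genotypes. The interaction of organ and genotype gave 0 of 18495 genes in edgeR, with 825 genes at an unadjusted p under 0.05, whereas DESeq2 gave 37 genes with a positive and 59 with a negative interaction. Among the immune genes, DESeq2 called Gcsam and Klrk1 on one side (4.61 and 2.97 on the log2 scale) and Trpm5 and Alox5ap on the other (−3.02 and −3.18). Erythroid genes, which were higher in spleen in all 10 cases, summed to 11777 and 16159 CPM in WT spleen and to 27391 and 30367 CPM in KO spleen, so that both KO libraries were above both WT libraries; the part of this difference in the immune results was not tested.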

How the data were processed

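Poly(A) mRNA of each organ was sequenced with a stranded kit. The authors deposited raw counts per gene of GRCm38 (Ensembl annotation), with exon length in bp; the submitters' processing notes name cutadapt, HISAT2 2.1.0, and featureCounts 2.0.1. The methods print reverse-stranded counting of proper pairs, whereas the command stored in the file header shows none of these options, and 54.9 to 58.8% of counts between 10 and 50 were even, so mates may be counted one by one and antisense reads cannot be told apart. Exons of Coro1a, Cxcr5, Mef2b, Tnfsf13, Foxp3, Trpm5, Itga4, Ackr4, Bst1, Csf1r, Il17rb, and Vil1 share bases with other genes.

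The 8 libraries were fitted with edgeR 4.0.16 (TMM, quasi-likelihood test, Benjamini-Hochberg adjustment, 18495 genes after the filter on low counts), with organ and genotype as terms. DESeq2 1.42.0 and limma 3.58.1 on log2(TPM + 0.1) were alternatives. The script was tested on simulated counts. Genes were named as the first 4 of each list, up to 4 per direction with the largest fold change and no overlap, those carried by 1 intestine library, and others where a whole list is accounted for. A few list members are counted but not reported here by name. The members and lists were chosen with earlier results of these data known. Acinar and adipocyte genes summed to at most 46.2 and 206 CPM in any library.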

Additional observations from a re-analysis of the deposited data

Results flagged for a closer look

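For genes named in the report, the highest or lowest of the 4 libraries of an organ stood apart from the other 3 in 40 of 300 groups of CPM values, where chance alone flags about 1 in 20. Some of these genes were named because 1 intestine library carried them, so the count is not comparable with that share. Of these, 20 were intestine WT replicate 1. There the library was high for the B cell and follicle genes Ms4a1 (121 CPM), Fcer2a (31.3), Cr2 (63.1), Ighd (99.9), S1pr2 (7.23), Mef2b (5.73), Ighg2b (122), Iglc4 (0.286), and Lta (4.73). It was high for the T cell and natural killer genes Il21 (2.9 CPM), Cd2 (8.23), Icos (9.95), Pdcd1 (1.72), and Eomes (0.609). It was also high for the receptors Ccr6 (11 CPM) and Ccr4 (2.83), and for Nos2 (315), Itgam (25.3), Spic (0.644), and Ppbp (0.143). The levels of Iglc4, Spic, and Ppbp rest on few counts.

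In intestine KO replicate 1, Rgs13 (141 CPM), Il1rl1 (44.4), and Il18r1 (29.5) were far above the other 3 libraries, and in KO replicate 2 Marco had 0.197 CPM against no count in the others.

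In spleen, WT replicate 1 was high for Irf4 (76.1 CPM), Ccr7 (108), Ccl19 (19.4), and Adamdec1 (68.5) and low for Ncr1 (8.09). WT replicate 2, the library with hepatocyte transcripts, was high for Pigr (16.6 CPM), Btnl1 (1.71), and Mpo (20.2) and low for Cx3cl1 (0.508); the part of the liver genes in these levels was not tested. KO replicate 1 was high for Btnl4 (2.9 CPM) and Lyve1 (4.36). KO replicate 2 was high for Rgs13 (14.8 CPM) and Ccl20 (0.23) and low for Anxa5 (91.2), Ltbr (8.6), and Tlx1 (9.81).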

How the results depend on the processing

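The 5172 genes higher in spleen became 3075 with a minimum of 10 counts in every library, which tests fewer genes, and 8507 with limma on log2(TPM + 0.1). The 236 immune genes higher in spleen became 131 with that minimum. Leaving out 1 library at a time gave 219 to 232 immune genes higher in spleen and 50 to 63 higher in intestine. The interaction of organ and genotype was called for 96 genes by DESeq2. Genes carried by 1 intestine library numbered 30 at 5 times the next library. Without division by length, the spleen shares were 11.5% for Igha and 63.1% for Ighm. The shares of Igha were 75.7 to 90.1% in intestine and 7.34 to 9.37% in spleen when 1 library was left out. The cause of these changes was not tested apart from the number of genes tested.

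The replicate numbers were not found to pair the libraries: deviations from the organ mean correlated at 0.051, 0.093, 0.067, and −0.088 for the 4 pairs. Deviations from the mean of organ and genotype correlated at 0.106 for the WT pairs and 0.007 for the KO pairs. With a replicate block, 240 immune genes were higher in spleen and 51 in intestine, 5186 and 4319 of all genes were called, and Igha and Jchain turned to 0.07 and 0.34. In that fit Tnfsf13b was not called (−0.96, adjusted p = 0.0729) and Ighg2b was called higher in spleen (4.05, adjusted p = 0.0463). Nos2 was at −3.04 with the block against −5.65 without it.

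Of 150 named genes with a fit, 84 kept direction and call in each of the 23 alternatives that tested them; the minimum of 10 counts tested only 92 of the 150. Besides genes given above, Gpr55, Lyve1, Il17rb, and Trgc4 lost their intestinal calls with library totals and with limma, and Itgae, Il18, Trgc1, Trgc2, Gzma, and Nos2 with limma. No named gene outside those that follow changed sign. With the WT libraries alone, log2 fold changes turned to −0.29 for Itgam, −0.37 for Il7, −0.46 for S1pr2, −0.77 for Nuggc, −0.87 for Mef2b, −0.89 for Gp2, and −1.39 for Il21. With the KO libraries alone they turned to −0.24 for Ccr10, −0.43 for Dclk1, and 0.50 for Jchain. With the ileal replicate 1 intestine libraries alone they were −0.03 for Ccr10, −0.06 for Dclk1 and for S1pr2, −0.18 for Mef2b, −0.32 for Il7, −0.48 for Il21, −0.50 for Cd9, 0.14 for Fcgrt, 0.72 for Trdc, 1.21 for Igha, 1.43 for Jchain, and 1.78 for Slc40a1. With the duodenal replicate 2 libraries alone they were −0.02 for Ccr10, −0.58 for Gp2, 0.53 for Il1rl1, and 0.69 for Nos2. Igha and Jchain kept their sign there and were called higher in intestine (−1.28 and −1.08, adjusted p = 0.00687 and 0.0209). Scaling by library totals gave 0.07 for Igha, 0.37 for Il1rl1, 0.38 for Adamdec1, and 0.50 for Jchain. The limma fit gave 0.29 for Slc40a1, 0.36 for Trdc, 0.41 for Adamdec1, 0.51 for Il1rl1, 0.97 for Igha, and 0.98 for Jchain. Ccr10 was at −0.03 in DESeq2, −0.02 with DESeq2 size factors, and −0.00 without a filter on low counts, and Gp2 was at −0.04 without the genotype term. Leaving out 1 library at a time turned 8 genes in some of the 8 fits, with ranges of −0.15 to 0.34 for Ccr10, −0.78 to 0.31 for Jchain, −0.23 to 3.0 for Il21, −0.44 to 0.67 for Gp2, −0.55 to 0.28 for Il1rl1, −0.21 to 0.52 for Il7, −0.16 to 0.56 for Cd9, and −1.07 to 0.81 for Igha. The cause was not tested.

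Each organ had 4 libraries, and levels of genes with a handful of counts carry a counting error beyond the spread between libraries.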
